A study of Homo sapiens with 4 samples.

Results

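The VMP1 and MIR21 locus on chromosome 17 was described through 5 genes: VMP1, the microRNA gene MIR21 that lies in its last exon, and their neighbours PTRH2, TUBD1 and RPS6KB1. These 5 of 62663 annotated genes were chosen by peak score, because the highest-scoring or nearly highest-scoring RNA polymerase II (Pol II) peak of each list lies past the VMP1 end. That score, and the place of that peak, are therefore given below as a description. With 20 kb added on each side the locus ran over 315939 bp (chr17:59654636-59970574, GRCh38) and held 17 of the 4014 peaks of the shLacZ list and 30 of the 14363 peaks of the shRRN3 list. Pol II had been profiled by chromatin immunoprecipitation and sequencing (ChIP-seq) in SK-OV-3, an established human ovarian cancer cell line, to ask how RRN3 influences transcription by Pol II and its termination. RRN3 is an initiation factor of RNA polymerase I. The cells stably carried a lentiviral short hairpin RNA under an H1 promoter, directed either at RRN3 (shRRN3) or at the bacterial gene LacZ (shLacZ, the control), and which of the study's RRN3 hairpins was used is not given in the labels. Each hairpin had 1 Pol II library, described by 1 peak list, and 1 input library that was not analysed here. With no replicates, no difference between the lists has an error between samples beside it, and the hairpin and the library cannot be told apart.

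VMP1 encodes a membrane protein of the endoplasmic reticulum that takes part in autophagosome formation and lipid transfer. MIR21 gives miR-21, an abundant microRNA of many tumours. Its primary transcript is known to start inside VMP1, from a promoter that responds to AP-1 and STAT3. It is also known to arise from VMP1 transcripts that extend through MIR21. PTRH2 encodes a mitochondrial peptidyl-tRNA hydrolase, TUBD1 encodes delta-tubulin and RPS6KB1 encodes ribosomal protein S6 kinase. Pol II usually stays on the template for some distance past the poly(A) site of a gene before it is released, and peaks past gene ends are seen at highly transcribed genes.

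The genes lie close together. VMP1 (ENSG00000062716.13, chr17:59707192-59842255, plus strand) has 12 exons in its reference transcript. PTRH2 (ENSG00000141378.15, chr17:59674636-59707626, minus strand) starts opposite to it, and the annotated starts lie 434 bp apart inside the stretch that both genes cover. The MIR21 hairpin (ENSG00000284190.1, chr17:59841266-59841337, plus strand) is 72 bp long, lies in the 3′ UTR part of VMP1 exon 12 (chr17:59839768-59842255), and ends 918 bp before the VMP1 end. TUBD1 (ENSG00000108423.15, chr17:59859479-59892945, minus strand) runs towards VMP1, with 17223 bp between the ends of these genes. RPS6KB1 (ENSG00000108443.14, chr17:59893046-59950574, plus strand) starts 100 bp from the TUBD1 start and runs away from it.

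The sequences that matter for the peaks are shown first. They are the mature microRNA, 120 bases around each match to the AP-1 core TGANTCA in the 5 kb before the hairpin, and 30 bases around the last AATAAA, the poly(A) signal hexamer, before the VMP1 end. The mature sequence is from RefSeq (GRCh38.p14) and has its seed, bases 2 to 8, in capitals, and the others were read from the plus strand of GRCh38 and have the matched letters in capitals.
hsa-miR-21-5p (chr17:59841273-59841294): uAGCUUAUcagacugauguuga
AP-1 core farther from MIR21 (chr17:59837175-59837294, intron 10): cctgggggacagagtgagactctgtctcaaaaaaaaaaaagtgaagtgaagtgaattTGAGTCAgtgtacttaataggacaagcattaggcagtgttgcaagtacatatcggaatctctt
AP-1 core nearer to MIR21 (chr17:59839491-59839610, intron 11): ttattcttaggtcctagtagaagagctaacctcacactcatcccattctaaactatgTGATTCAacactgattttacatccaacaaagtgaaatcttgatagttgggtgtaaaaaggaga
Last AATAAA of VMP1 (chr17:59842210-59842239, exon 12): ctgtaAATAAAaagagggcctgggaattct

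The farther AP-1 core starts 4034 bp before the hairpin and the nearer one 1718 bp before it. The last AATAAA starts 40 bp before the VMP1 gene end and ends 11 bp before position 59842231, where 4 of the 20 annotated VMP1 transcripts end.

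The peaks at the VMP1 end were examined first. In shLacZ the highest-scoring peak of the locus (chr17:59842489-59845261) began 234 bp past the VMP1 end, was 2773 bp wide and had a score of 2894, which was rank 3 of the 4014 peaks in its list by score and rank 10 by width. In shRRN3 the corresponding peak (chr17:59842218-59847081) began just before the VMP1 end, was 4864 bp wide and had the highest score listed, 3100, which it shared with other peaks so that 4 were at this ceiling, and it was rank 10 of 14363 by width. The score is the authors' measure of confidence in a peak and depends on depth. Scores are printed as listed, and only the rank within a list is read. The peak past the VMP1 end was thus at the top of both lists, which is how the locus was chosen.

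The control list broke this stretch into several peaks where the shRRN3 list joined them. Past its main peak, shLacZ had peaks of 255, 486 and 740 bp with scores of 66.5, 118 and 171, and a peak of 193 bp with a score of 60.3 lay over the VMP1 end itself. These 5 shLacZ peaks lay within or across the edge of the single shRRN3 peak and covered 4425 bp, or 91%, of it. The last shLacZ peak ended at 59846947 and the shRRN3 peak ended 134 bp farther on. In both lists all peak cover past VMP1 therefore ended within 5 kb of the VMP1 end, and none reached the TUBD1 end.

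**Figure D1:**
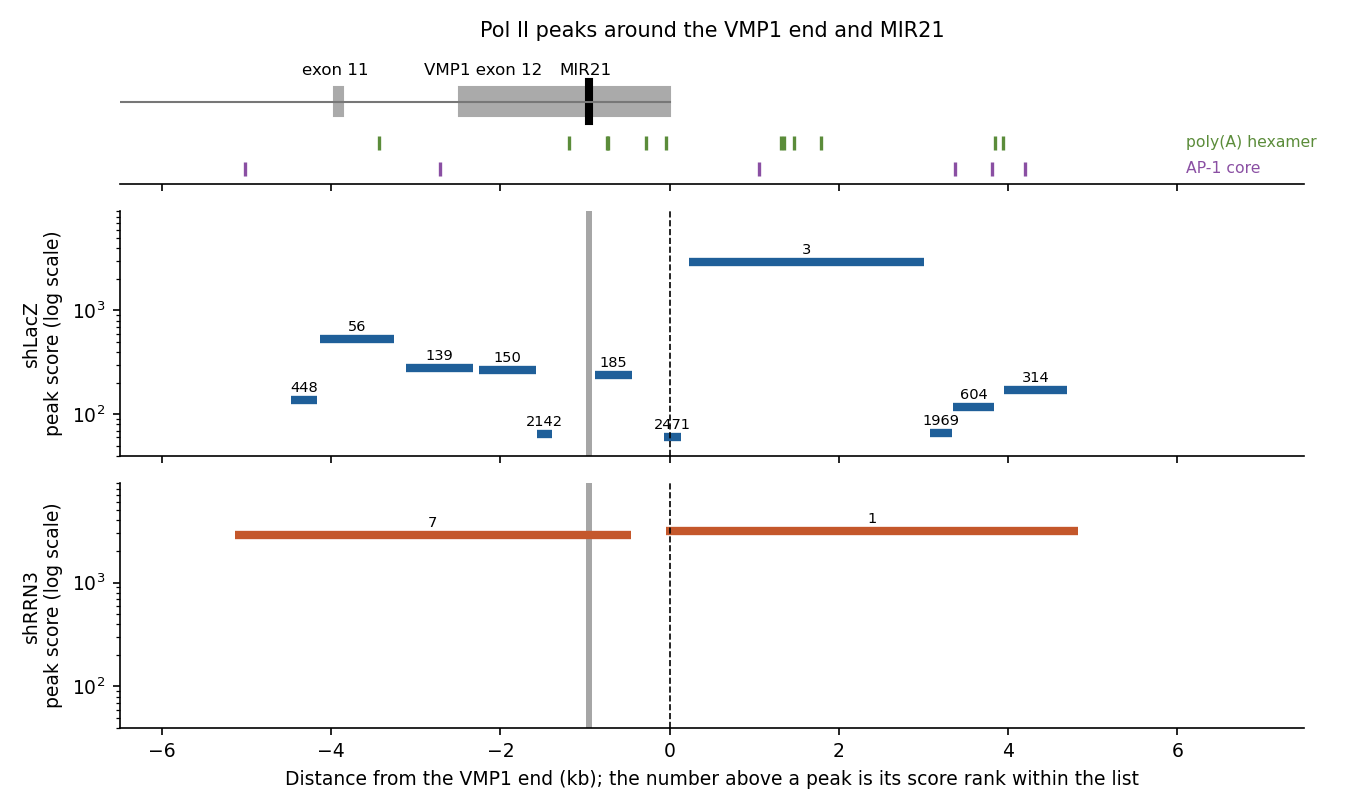
Peaks around the VMP1 end in shLacZ (upper panel) and shRRN3 (lower panel), drawn to scale against the distance from the VMP1 end in kb, with the peak score on a log scale and the score rank within the list above each peak. The grey band is the MIR21 hairpin, the dashed line the VMP1 end, and the ticks are AATAAA (poly(A) hexamer) on the plus strand and TGANTCA (AP-1 core). The hairpin lies between shLacZ peaks and under the shRRN3 peak of rank 7, and no peak lies more than 5 kb past the end.

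Before the hairpin, shLacZ had 5 peaks in the 5 kb that hold the known start of the primary miR-21 transcript. In order towards the hairpin they were 300, 873, 793, 676 and 173 bp wide and had scores of 138, 533, 279, 268 and 64.5. The peak of score 533 (chr17:59838130-59839002), with its midpoint in intron 11, was rank 56 of its list. In shRRN3 a single peak of 4682 bp (chr17:59837116-59841797) with a score of 2855 spanned this stretch, and it was rank 7 by score and rank 12 by width. It overlapped 6 shLacZ peaks, the last of which ran 18 bp past its end, and they covered 3244 bp or 69.3% of it, while it reached 668 bp farther upstream than the first of them. Peaks covered 2815 bp (56.3%) of the 5 kb before the hairpin in shLacZ and 4150 bp (83%) in shRRN3.

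The hairpin itself was under no peak in shLacZ. It lay in a gap of 502 bp (chr17:59840867-59841368), 399 bp after the peak before it and 31 bp ahead of the next peak (chr17:59841369-59841815, score 238, rank 185). In shRRN3 all 72 bp of the hairpin were under the 4682-bp peak. Among 1879 annotated microRNA genes, the hairpin was under a peak at 14 in shLacZ, or 0.745%, and at 58 in shRRN3, or 3.09%. The hairpin of MIR21 thus belonged to this small group in shRRN3 alone. That rests on a gap between shLacZ peaks, and whether neighbouring peaks are joined depends on depth, which is unknown. The highest-scoring peak within 5 kb of MIR21 was the peak past the VMP1 end by which the locus was chosen, so that MIR21 being rank 1 of the microRNA genes by this measure in shLacZ, and sharing rank 1 with MIR3193 in shRRN3, follows from that choice. The next microRNA genes in shLacZ were MIR3193 with a score of 1421, MIR1248 with 429 and MIR5188 with 417, and the next in shRRN3 was MIRLET7I with 1192. By its score and its rank of 11, the shLacZ peak at MIR3193 is also the top peak past the end of ID1, a gene described below.

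A gap just before the VMP1 end was present in both lists. It was 380 bp long in shLacZ (chr17:59841816-59842195) and 420 bp long in shRRN3 (chr17:59841798-59842217). Between the hairpin end and the VMP1 end, peaks covered 507 of 918 bp in shLacZ and 498 of 918 bp in the shRRN3 list. The bases common to these gaps were the only ones uncovered in both lists between the start of the 4682-bp peak and the end of the 4864-bp peak. The last AATAAA, printed above, lay at its downstream edge, under the small shLacZ peak over the VMP1 end and partly outside the shRRN3 peak, which begins inside the hexamer.

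VMP1 has 5 short annotated transcripts that start between 3315 and 4029 bp before the hairpin. The shLacZ peak of 300 bp (chr17:59837784-59838083) covered 3 of these starts (59837855, 59837931 and 59837951), while the other two (59837237 and 59837628) lay upstream of every shLacZ peak of this stretch. The shRRN3 peak covered all 5 starts. The farther AP-1 core overlaps the start at 59837237, and it was under the shRRN3 peak and under no shLacZ peak. The nearer core was under a peak in both lists, as were the 4 matches to TGANTCA in the 6 kb past the VMP1 end. In the 6 kb before the VMP1 end 4 of 6 AATAAA matches on the plus strand were wholly under a peak in each list, and in the 6 kb past it 4 of 6 were in shLacZ and 6 of 6 in shRRN3.

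The base composition around the peaks of the locus was low in GC. The 300 bp around the midpoints had a median GC share of 40.7% in shLacZ (29% to 52%) and 38% in shRRN3 (26.7% to 63%), against 48% and 47.7% over all peaks of each list. AATAAA, read on both strands, was found in these 300 bp at 10 of 17 shLacZ peaks (58.8%) and 12 of 30 shRRN3 peaks (40%), against 24.6% and 27.2% of all peaks. TGANTCA was found at 5 (29.4%) and 8 (26.7%), against 19.2% and 26.9%. The AATAAA share was higher and the GC share lower than over all peaks in both lists, and the part of GC in the former was not tested. Of the shLacZ peaks, 6 overlapped the 4682-bp shRRN3 peak and 5 the 4864-bp peak around the VMP1 end. These neighbouring pieces of the stretch by which the locus was chosen were counted separately, so the shLacZ shares rest largely on that stretch. A match to these letters is a description of the sequence and not evidence of a bound factor or a used poly(A) site.

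Along the body of VMP1 both lists had peaks far from either end, nearly all of them in introns. The gene touched 13 shLacZ peaks that covered 4812 bp, or 3.56% of its length, and 24 shRRN3 peaks that covered 14395 bp, or 10.7%. Among 20033 protein-coding genes VMP1 was rank 3 by the number of peaks in shLacZ and rank 5 in shRRN3, where the genes ahead of it included HIF1A with 29 and RAD51B with 26. A peak lay inside 11.8% of protein-coding genes in shLacZ and 33.8% in shRRN3. Of the VMP1 peaks, 7 of the 13 in shLacZ and 2 of the 24 in shRRN3 lay in the stretch around the gene end. The locus was chosen by that stretch, so the ranks follow in part from the choice and are given as a description. Peak number also depends on whether neighbouring peaks are joined. Gene length bears on such numbers, and VMP1 at 135064 bp is longer than HIF1A at 52747 bp and shorter than RAD51B at 910440 bp.

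When peaks less than 3 kb apart were joined, VMP1 and the sequence past it carried 9 clusters, 5 of which had peaks in both lists. Those shared were in intron 5, in intron 7 at separate places, in intron 10 and at the end of the gene. The shared cluster in intron 7 that scored highest (chr17:59782445-59787101) had 3 shLacZ peaks with scores of 73.4, 56.6 and 51 and 5 shRRN3 peaks with scores of 59.2, 65.2, 258, 128 and 285. Its peak of score 285 was rank 396 in shRRN3 and its peak of score 73.4 was rank 1605 in shLacZ, so its best peak was above the middle of each list. The other shLacZ peaks were in the lower part of the list, at ranks 2897 and 3768. So were the shRRN3 peaks of score 59.2 and 65.2, at ranks 10541 and 8960. The shared sites in intron 5 and intron 10 had 1 shLacZ peak each, with scores of 51.9 and 54.3 in the lower part of the list, and top shRRN3 scores of 110 and 202.

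The 4 clusters found in shRRN3 alone were nearer to the start of the gene, except that in intron 9. A group of 5 peaks in intron 5 (chr17:59752631-59756821) had scores of 59.5, 118, 162, 77.9 and 122, with rank 1505 at best. The others were the peaks at the gene start and in intron 1 with scores of 205 and 71.1, a peak in intron 3 with a score of 76.5, and a peak in intron 9 with a score of 60.4. In shLacZ the first peak of the gene was thus in intron 5, more than 54 kb past the start.

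**Figure D2:**
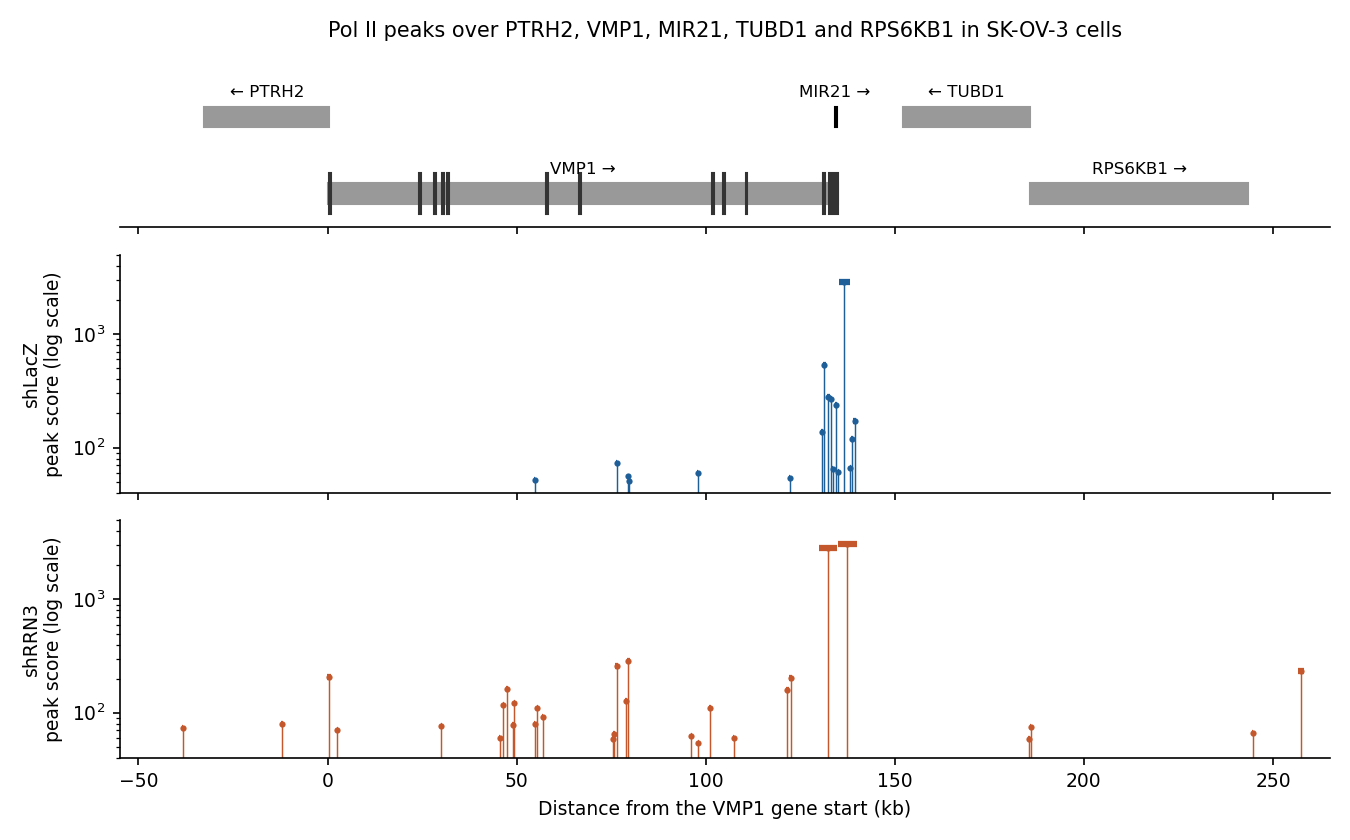
Genes of the locus (top, VMP1 exons as dark bars) and peaks of shLacZ and shRRN3 against the distance from the VMP1 gene start in kb. Each dot stands at the midpoint of 1 peak, the thick horizontal line is its width, and the height is the score on a log scale. The 17 shLacZ peaks all lie between intron 5 of VMP1 and 5 kb past its end, while the 30 shRRN3 peaks also include the starts of PTRH2, VMP1, TUBD1 and RPS6KB1.

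All 17 shLacZ peaks of the locus were overlapped by a shRRN3 peak by at least 1 bp, or 100% (exact Clopper-Pearson 95% interval 80.5% to 100%), against 66.2% of all shLacZ peaks on the primary chromosomes. In the other direction a shLacZ peak overlapped 7 of the 30 shRRN3 peaks, or 23.3% (9.93% to 42.3%), against 16.9% of all shRRN3 peaks. The intervals cover counting error only and treat neighbouring peaks as independent, although 11 of the shLacZ peaks were matched by only 2 shRRN3 peaks. Those 11 lie in the stretch around the VMP1 end by which the locus was chosen, so their matches follow at least in part from the choice. The shares are therefore given as a description, and the intervals are not read against the shares over all peaks. Under a rule of 50% shared length in each of the peaks, 3 of the 17 shLacZ peaks (17.6%) had a match, against 38.6% of all shLacZ peaks on the primary chromosomes. The 7 matched shRRN3 peaks had a median width of 738 bp and a median score of 258, and the 23 unmatched ones had 350 bp and 77.9. Each shLacZ site of the locus was thus also listed in shRRN3, and most lay in or at a wider shRRN3 peak.

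The starts of the genes were compared next. A start peak was defined as a peak with its midpoint within 1 kb of the gene start, and 7.56% of protein-coding genes had one in shLacZ and 23.7% in shRRN3. In shLacZ 1 of the 5 genes had a start peak, and this was MIR21, whose start lies inside VMP1. In shRRN3 the other 4 genes had one, and the midpoint of the peak over MIR21 lay 1809 bp before the hairpin start. The genes were chosen with these lists in view, so these counts are not read further.

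VMP1 and PTRH2 shared a shRRN3 start peak of 970 bp (chr17:59707064-59708033) with a score of 205, rank 856 of its list. Its midpoint lay 357 bp past the VMP1 gene start and 77 bp past the PTRH2 start, each counted in the direction of its gene. These starts are the outermost annotated bounds. The reference transcript of VMP1 starts at 59707654, so the midpoint lay before that start. In shLacZ no peak lay within 50 kb of either start, and the nearest midpoint was 54753 bp inside VMP1. At TUBD1 and RPS6KB1 shRRN3 had a peak of 402 bp (chr17:59892521-59892922) with a score of 58.7, rank 10665, in TUBD1 exon 1, and a peak of 321 bp (chr17:59892994-59893314) with a score of 75.5, rank 7023, over the RPS6KB1 start. The nearest shLacZ midpoint was 46367 bp from the TUBD1 start and 46468 bp from the RPS6KB1 start, at the last peak past VMP1. By score the VMP1 and PTRH2 start peak was therefore within the top 5.96% of the shRRN3 list, and the others were within the top 48.9% (RPS6KB1) and 74.3% (TUBD1).

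Neither TUBD1 nor RPS6KB1 had any other peak inside the gene, and PTRH2 had 2 shRRN3 peaks, with a covered length of 922 bp. When only the 4014 top-scoring shRRN3 peaks were kept, 14 locus peaks were left and start peaks were left at 2 of the genes, PTRH2 and VMP1. Counting every annotated transcript start, VMP1 also had a start peak in shLacZ, at its short transcripts before MIR21.

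The start regions that lay under shRRN3 peaks are shown for VMP1 and RPS6KB1, because those of PTRH2 and TUBD1 are largely the same bases on the other strand. The sequences are from RefSeq (GRCh38.p14, plus strand). They run from 250 bases before to 50 bases after the RefSeq start, which differs from the gene start used above. Capitals mark matches on either strand to CCGGAAG, an ETS core, TGACGT, part of a cyclic AMP response element, and TGCGCA, the core of the NRF1 site.
VMP1 (chr17:59707404-59707703): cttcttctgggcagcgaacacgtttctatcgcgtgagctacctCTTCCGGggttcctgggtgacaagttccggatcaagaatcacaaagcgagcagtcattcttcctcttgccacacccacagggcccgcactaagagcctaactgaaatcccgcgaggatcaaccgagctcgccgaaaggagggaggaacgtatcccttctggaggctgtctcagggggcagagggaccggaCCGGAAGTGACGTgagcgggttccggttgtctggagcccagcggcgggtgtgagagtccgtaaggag
RPS6KB1 (chr17:59892871-59893170): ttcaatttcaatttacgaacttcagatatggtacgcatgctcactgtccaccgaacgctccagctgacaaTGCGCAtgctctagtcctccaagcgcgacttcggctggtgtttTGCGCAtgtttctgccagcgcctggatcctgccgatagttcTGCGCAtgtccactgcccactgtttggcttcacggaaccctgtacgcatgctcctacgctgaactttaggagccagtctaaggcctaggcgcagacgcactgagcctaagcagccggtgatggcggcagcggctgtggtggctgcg

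All 300 bases shown for VMP1 and 229 of the 300 bases shown for RPS6KB1 were under a shRRN3 peak, and none of either was under a shLacZ peak. The VMP1 start region held 2 matches to CCGGAAG and 1 to TGACGT, directly next to the match nearer the start, and the RPS6KB1 start region held 3 matches to TGCGCA. Of 35116 promoters in the RefSeq table, 10.3% held CCGGAAG, 7.98% held TGACGT and 8.24% held TGCGCA. Neither region held GGGCGG or CCAAT, which 45% and 34.6% of promoters held. The VMP1 region had 22 CG dinucleotides and a GC share of 59.3%, and the RPS6KB1 region had 21 and 56.7%, against medians of 14 and 58.7% over the table. The start regions with a peak in shRRN3 alone thus held more CG dinucleotides than the median promoter, and their GC share was above that of most peaks of the locus.

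The length of peak cover past the VMP1 end was set beside that of other genes. There were 9402 protein-coding genes with no other protein-coding gene in the 10 kb past their end, and a peak lay in this window at 139 of them in shLacZ, or 1.48%, and at 476 in shRRN3, or 5.06%. Among genes with such a peak the median cover came to 330 bp in shLacZ and to 494 bp in shRRN3. Peaks covered 4387 bp past VMP1 in shLacZ, which was rank 1, and 4826 bp in shRRN3, which was rank 6. These ranks follow from the choice of the locus and are given as a description. In the window of 5 kb VMP1 was rank 1 in both lists, and among all protein-coding genes it was rank 16 in shRRN3.

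The genes next to VMP1 in shLacZ were TPT1, which encodes translationally controlled tumour protein, with 3863 bp, ID1, an inhibitor of DNA binding by helix-loop-helix factors, with 2456 bp, the cell cycle phosphatase CDC25B with 1887 bp, and F3, which encodes tissue factor, with 1886 bp. In shRRN3 the genes ahead of VMP1 included MON2, a regulator of endosome-to-Golgi transport, with 7601 bp, TPT1 with 7094 bp, the splicing factor SRSF3 with 5110 bp, and HIF1A, the hypoxia-inducible factor, with 4995 bp. Of these, TPT1 had 3863 bp in shLacZ, SRSF3 had 1532 bp, MON2 had 1272 bp and HIF1A had 762 bp. The cover past VMP1 was nearly as long in shLacZ as in shRRN3. Of the genes named for their shLacZ cover, ID1 with 2513 bp and F3 with 2311 bp in shRRN3 were also near their shLacZ values. CDC25B, with 4794 bp in shRRN3, and TPT1 were not. The cover past MON2, SRSF3 and HIF1A was much longer in shRRN3, but these genes were named for their shRRN3 cover.

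**Figure D3:**
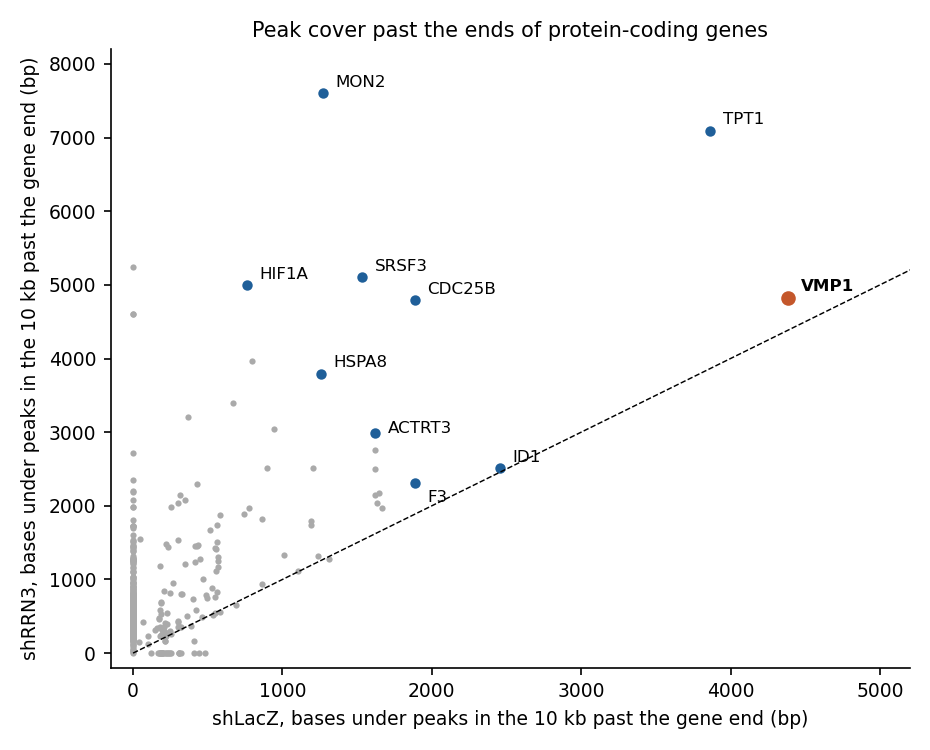
Bases under peaks in the 10 kb past the gene end in shLacZ (x axis, bp) and in shRRN3 (y axis, bp), for protein-coding genes with that window free of other protein-coding genes and a peak in either list. Each dot is 1 gene, the dashed line marks equal cover, and named genes with cover in both lists are blue with VMP1 in orange. VMP1, at 4387 and 4826 bp, lies farthest to the right and close to the line.

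The 5 genes whose cover past the end was most like that of VMP1 were found by summing the absolute difference in covered bases over 1-kb bins of the 10 kb, in both lists, which gave 20 values for each gene. They were HSPA8, a constitutive heat shock cognate chaperone, with a summed difference of 4162 bp, ID1 with 4444 bp, TPT1 with 4464 bp, HIF1A with 4526 bp and ACTRT3, an actin-related gene, with 4607 bp. A gene with no peak past its end would differ by 9213 bp, so even the nearest gene was not close. In VMP1 the bins from 0 to 5 kb had 900, 1000, 1000, 795 and 692 bp in shLacZ and 1000, 1000, 1000, 1000 and 826 bp in shRRN3. In HSPA8 the same bins had 0, 433, 823, 0 and 0 bp in shLacZ and 1000, 1000, 958, 523 and 314 bp in shRRN3. ID1 had full cover of the first 2 kb in both lists and ended in the bin from 2 to 3 kb, with 456 bp in shLacZ and 513 bp in shRRN3. TPT1 had cover in each bin of the first 4 kb in shLacZ, none from 4 to 7 kb and 454 bp in the bin from 7 to 8 kb, whereas in shRRN3 it had cover in each bin out to 9 kb. ACTRT3 had 0 bp in the first bin in both lists, and 496 bp in shLacZ and 818 bp in shRRN3 in the next bin. The windows were cleared of protein-coding genes only. Whether cover in them, such as that past ACTRT3, belongs to a noncoding gene was not tested. Among these genes VMP1 and ID1 thus had cover in the same bins in both lists.

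**Figure D4:**
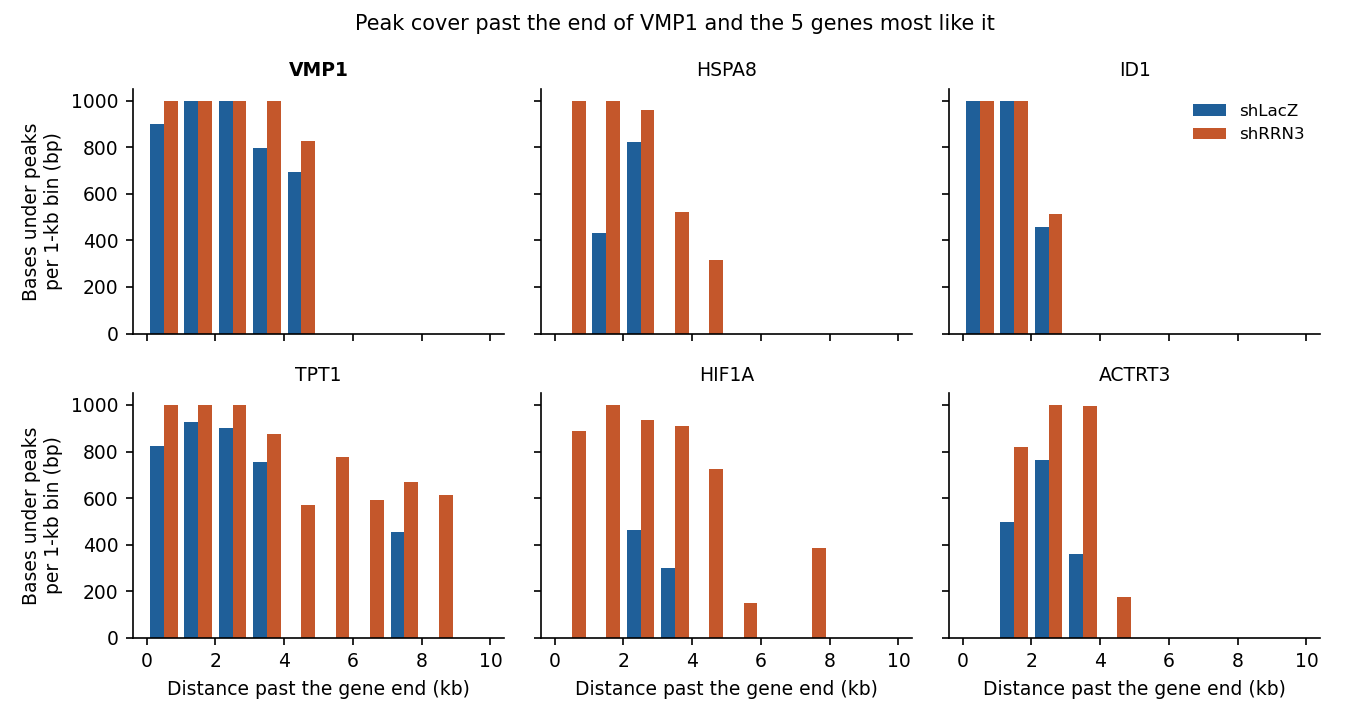
Bases under peaks in each 1-kb bin (y axis, bp) against the distance past the gene end (x axis, kb) for VMP1 and the 5 genes most like it, with shLacZ in blue and shRRN3 in orange. In VMP1 both lists fill the first 3 bins almost completely and stop before 5 kb.

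Past the ends of the other genes little was listed. TUBD1, whose end faces that of VMP1, had no peak in the 10 kb past its end in either list. PTRH2 had 305 bp of cover in shRRN3 and RPS6KB1 had 294 bp in shRRN3, both in windows that reach into another protein-coding gene, and neither had any in shLacZ.

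The neighbourhood was examined to see whether start peaks were also more frequent around the locus. Among the 22 other protein-coding genes within 1 Mb, 4 had a start peak in shLacZ (18.2%) and 12 in shRRN3 (54.5%). Over all protein-coding genes the shares were 7.56% and 23.7%. Genes that start side by side can share a peak, as TEX14, IGBP1C and RAD51C did in shRRN3. The counts are therefore of genes and not of separate peaks. CLTC encodes the clathrin heavy chain and overlaps the annotated span of PTRH2 on the other strand. It had a start peak of score 58.5 in shLacZ (rank 2703) and of 179 in shRRN3 (rank 1193). The ring finger gene RNFT1, which lies beyond RPS6KB1, had a start peak in shRRN3 alone, with a score of 232, and so did HEATR6 with 144. Farther out, SMG8, PRR11, SKA2 and TRIM37 had one in shRRN3 alone, with scores of 92 at SMG8, 114 at TRIM37 and 118 at the peak that PRR11 and SKA2 share. APPBP2 had a start peak in both lists, with scores of 113 in shLacZ (rank 637) and 112 in shRRN3 (rank 3332). So did PPM1D, a protein phosphatase, with 53 (rank 3403) and 112 (rank 3330). CHCT1 had one in shLacZ alone, with a score of 55.7. The list with more start peaks at the 5 genes also had more at their neighbours and, by the shares above, over all protein-coding genes.

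Genes linked to the locus by function were counted in the same way, as lists of 68 genes in all. The scores given with them belong to each list and are not compared between lists. Of 11 partners of VMP1 in autophagosome formation, none had a start peak in shLacZ and 4 had one in shRRN3. These were PIK3R4, BECN1 and PIK3C3, subunits of the class III phosphatidylinositol 3-kinase, with scores of 138, 84.6 and 75.3, and TMEM41B, a scramblase like VMP1, with 61.7. ATG14 and UVRAG, also subunits of this kinase, had no start peak in either list. Nor did the lipid transfer genes ATG2A and ATG2B or the scramblase gene ATG9A.

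Of 11 genes of microRNA biogenesis, 3 had a start peak in shLacZ and 7 in shRRN3. DGCR8, the partner of DROSHA, had a score of 54.7 in shLacZ (rank 3135) and 168 in shRRN3 (rank 1388). AGO3 had 65.4 (rank 2049) and 156 (rank 1629), and TARBP2 had 69.9 (rank 1764) and 79.2 (rank 6483). RAN and XPO5, which carry precursors out of the nucleus, had 150 and 141 in shRRN3 alone. DICER1, AGO1, AGO2 and AGO4 had no start peak in either list.

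The activators known for the MIR21 promoter are AP-1 subunits and STAT3. Of these 8 genes, 3 had one in shLacZ and 7 in shRRN3. JUN had a score of 150 in shLacZ (rank 384) and 319 in shRRN3 (rank 309), and JUNB had 160 (rank 348) and 269 (rank 453). FOSL2 had 68.6 (rank 1840) and 85 (rank 5671). FOS, at 204, and JUND, at 160, had start peaks in shRRN3 alone, as did FOSL1 and STAT3, and FOSB had none. Start peaks at AP-1 genes were thus present in both lists.

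Among the well-known miR-21 targets 0 of 8 had a start peak in shLacZ and 1 in shRRN3, SPRY2 with a score of 54.6, close to the lowest listed. PDCD4, RECK, TPM1, SPRY1, TIMP3 and BTG2 were among those without one. Of 9 genes of the S6 kinase pathway, 1 had a start peak in shLacZ and 4 in shRRN3. RPS6, the ribosomal protein that the kinase phosphorylates, had 130 (rank 501) and 229 (rank 660). MTOR with 123, EIF4B with 97 and RPTOR with 69.8 had a start peak in shRRN3 alone. Of 15 other microRNA host genes, 0 had one in shLacZ and 2 in shRRN3, MIRLET7BHG with 69.2 and MIR31HG with 59.9. Of 6 genes of the delta and epsilon tubulin group, 0 had one in shLacZ and 3 in shRRN3, TEDC2 with 118, TUBG1 with 54.9 and TUBGCP3 with 52.9. Of the 53 protein-coding genes in these lists 7 had a start peak in shLacZ (13.2%) and 26 in shRRN3 (49.1%), beside the shares of 7.56% and 23.7% over all protein-coding genes. The 15 microRNA host genes are annotated as long noncoding RNA genes, of which 2.88% had a start peak in shLacZ and 8.79% in shRRN3.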

How the data were processed

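Pol II ChIP-seq of SK-OV-3 cells was represented by 1 peak list for shLacZ and 1 for shRRN3, and the inputs were not analysed here. The authors called peaks in each library separately and deposited, for each peak, its coordinates and a score. Peak names carry the program name MACS, and per the labels the build is hg38. The MACS version, the aligner, duplicate handling, the calling threshold and how the input was used are not given in the sources used here. The deposited score, from 50 to 3100, is probably 10 times the −log10 of a p-value. It depends on depth, which peak lists do not show, and the number of peaks, their widths and whether neighbouring peaks are joined depend on depth too. Scores were therefore only ranked or filtered within a list. Scores of the lists printed side by side are not a comparison of Pol II amounts.

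Genes were taken from GENCODE release 44, with protein-coding and microRNA genes on chromosomes 1 to 22, X and Y. Start peaks had their midpoint within 1 kb of the gene start, and overlap required 1 bp. Motif matches were read from GRCh38 and RefSeq tables. No test was made, since each group had 1 library. Named genes were the 5 members, the 5 genes per list with the most cover past the end, the 5 most like VMP1, the 10 nearest neighbours with a start peak, and up to 4 genes per functional list by score. Some genes that this rule or these lists hold are not reported here. Genes of the functional lists without a start peak, further genes named beside these, the promoter motifs, the 6-kb stretches, the ranks of microRNA genes and of genes by peak number, the shares for long noncoding RNA genes and for the 50% rule, and the 3-kb joining of peaks were chosen after values were seen. The members and lists were chosen with earlier results of these data known. The code was tested on simulated lists, and overlaps were checked against bedtools 2.31.1 (Python 3.11.15, matplotlib 3.10.9).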

Additional observations from a re-analysis of the deposited data

How the results depend on the processing

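Of 62 values under alternatives, for 25 results, 47 stayed the same or, for counts, within 1.5 times of the reported value, and 15 moved beyond that. With a score at or above the shLacZ median of 66.05 in both lists, the locus held 10 shLacZ peaks, all 10 overlapped, and 1 neighbour had a shLacZ start peak. With the shRRN3 list reduced to the length of the shLacZ list, the locus held 14 shRRN3 peaks, 2 members had a shRRN3 start peak and 12 genes of the functional lists did. Any transcript start gave 2 members in shLacZ. Neighbours with a start peak numbered 9 in shLacZ and 20 in shRRN3 within 2 Mb, and 6 in shRRN3 within 0.5 Mb. Any peak in the gene or its 2-kb flanks gave 15 functional-list genes in shLacZ. VMP1 was rank 1 in shRRN3 with 5 kb past the end and rank 16 among all protein-coding genes. Sharing 50% of both peaks left 3 shLacZ peaks overlapped. In 200 bp around the midpoint, 5 shRRN3 peaks held TGANTCA. The construction of these alternatives (fewer peaks, other windows) sets these changes. The 20 kb past VMP1 reach into TUBD1, so no rank was given for that window, and cover stayed at 4387 and 4826 bp. No paired analysis was possible because shLacZ and shRRN3 have 1 library each. Read depth is unknown, so a site without a listed peak may lie under the threshold.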
